A study of Mus musculus with 4 samples.

Results

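Hepatocytes from the region of a hepatocellular carcinoma (HCC) were compared with hepatocytes of the low-AFP group of mouse livers, by counting the RNA molecules of single cells. Cells were kept when they had at least 300 genes and 500 unique molecular identifiers (UMIs, each standing for a captured RNA molecule), at most 30% mitochondrial UMIs, and no UMI of Ptprc, the gene for the pan-leukocyte protein CD45. In addition, 5 hepatocyte transcripts (Alb, Apoa1, Apoa2, Apoc3 and Ttr) together had to make up at least 4% of the nuclear-encoded UMIs. These rules left 328 cells in HCC, which were 4.10% of the 8004 cells past the 3 quality limits (3.67 to 4.56, exact 95% binomial interval). In low-AFP they left 1829 of 5359 cells, or 34.1% (32.9 to 35.4). The mitochondrial limit was exceeded by 8.19% of all HCC barcodes and 42.0% of all low-AFP barcodes. The 2157 cells of both libraries came from 18186 barcodes. The series holds 40838 barcodes in 4 libraries, the others being the control and high-AFP groups.

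All 4 libraries are from C57BL/6 mice, and the series title names a CD-HFD and the step from obesity to liver cancer. Mice are 15 months old by the titles but 17 months by the age field. The low-AFP title names CD-HFD and that of control a control diet, while the title and the file label of high-AFP disagree on the diet. The HCC title names no diet. For every library the protocol describes Percoll-purified parenchymal cells mixed 1:1 with sorted live non-parenchymal cells, although the HCC source is a cell suspension from the tumour region. The number of mice and of tumours behind each library is not given in the sources used here. Each group was 1 library, so no test was possible: every fold describes these libraries, and every interval covers counting error only.

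Hepatocytes make most plasma proteins and carry out urea synthesis, glucose release, bile acid synthesis and drug metabolism. These tasks are divided along the liver lobule: cells near the portal vein express urea cycle and gluconeogenic enzymes, and cells around the central vein, under Wnt and beta-catenin signalling, express glutamine synthetase and many cytochrome P450 enzymes. Hepatocellular carcinoma arises from such cells, commonly keeps part of the hepatocyte programme, and can turn on genes of the fetal liver such as Afp, which encodes alpha-fetoprotein.

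The cells of both libraries carried hepatocyte transcripts that the selection did not use. Levels are given as UMIs per 1000000 nuclear-encoded UMIs (CPM), pooled over all kept cells of a library. Over 10 other hepatocyte markers the summed level was 18795 CPM in HCC and 21416 CPM in low-AFP, against 963 and 3941 CPM in the Ptprc-positive cells of the same libraries. With 10 CPM added to each level, 3 of the 10 were at least 2-fold lower in HCC and 0 higher. Of all genes compared this way 3.10% were lower and 5.18% higher. Cps1 was 1 of the 3, at 285 CPM in HCC and 1828 CPM in low-AFP. Ahsg, encoding the plasma protein fetuin-A, was at 6131 CPM in HCC and 4254 CPM in low-AFP, and Hnf4a, a hepatocyte transcription factor, at 172 and 215 CPM. The cholangiocyte markers Krt19, Krt7 and Cldn4 and the mesothelial markers Msln, Upk3b and Wt1 had 0 UMIs in the HCC cells. The whole cholangiocyte list summed to 16.6 CPM in HCC and 64.8 CPM in low-AFP. The endothelial list summed to 5.71 CPM in HCC and 21.1 CPM in low-AFP, with Kdr at 0 UMIs in HCC, and the mesenchymal list to 2.85 and 1.44 CPM.

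Markers of blood cells were low but higher in HCC. T cell markers summed to 30.4 CPM in HCC against 2.16 CPM in low-AFP, natural killer cell markers to 19.02 against 1.16 CPM, and those of macrophages and monocytes to 116 against 41.0 CPM. Neutrophil markers summed to 19.02 against 2.01 CPM, B cell markers to 17.1 against 7.21 CPM, dendritic cell markers to 2.38 against 1.79 CPM, and erythroid markers to 198 against 34.7 CPM. The dendritic genes Flt3, Xcr1 and Siglech and the B cell gene Ms4a1 had 0 UMIs in HCC. In the Ptprc-positive HCC cells the T cell and erythroid lists summed to 2273 and 2768 CPM. The part of such RNA in single results was not tested, and the level in Ptprc-positive cells stands beside the genes it touches.

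Depth differed strongly between the sides. The libraries held 65326793 UMIs in HCC and 80505127 in low-AFP, and had 39 barcodes in common, where other library pairs had 23 to 35. The kept cells had a median of 1992 UMIs and 854 genes in HCC, and 17784 UMIs and 3326 genes in low-AFP. Of the HCC cells 31 had 20000 UMIs or more and held 64.8% of the HCC UMIs, so pooled HCC values lean on few cells. In low-AFP 861 cells were that deep. The median mitochondrial share was 5.64% in HCC and 15.8% in low-AFP. Folds were therefore also computed with cells thinned to 2000 UMIs each, which leaves out 166 HCC and 347 low-AFP cells of lower depth and keeps 162 and 1482.

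**Figure D1:**
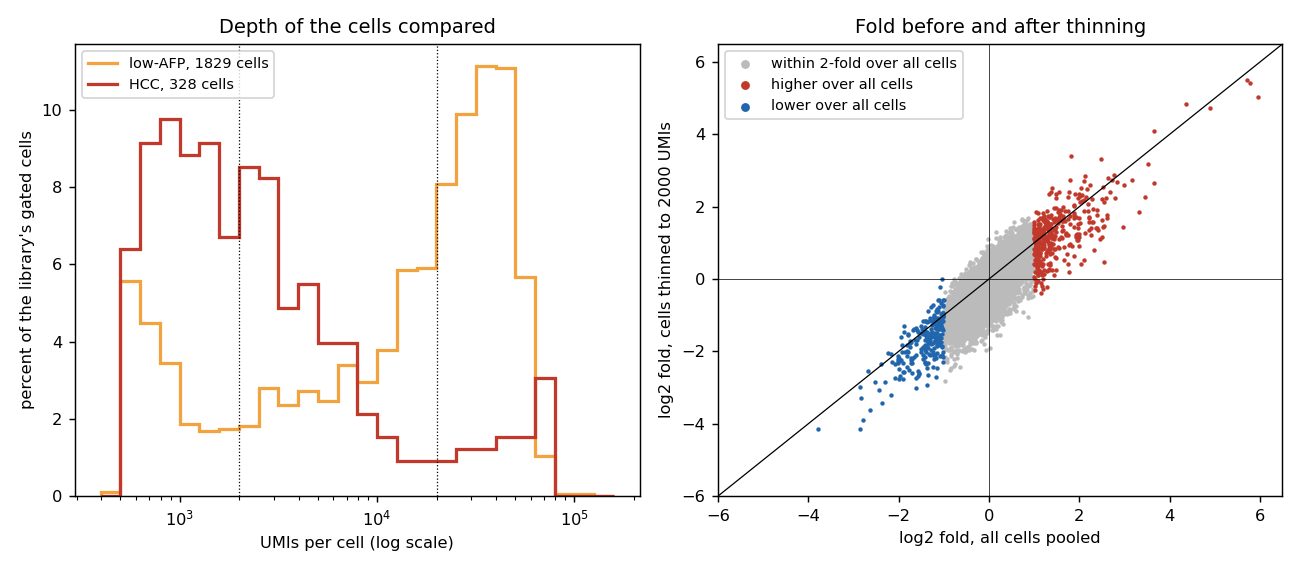
Left, share of kept cells (percent, vertical axis) by UMIs per cell (log axis) for low-AFP and HCC, with dotted lines at 2000 and 20000 UMIs. Right, each dot is 1 of the 7450 genes tested, with its log2 fold of HCC over low-AFP over all cells pooled (horizontal) and after thinning (vertical). HCC cells lie mostly below 5000 UMIs while 1308 of 1829 low-AFP cells lie at or above it, and 375 of 386 higher and 231 of 231 lower genes had the same sign after thinning.

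Just outside the 4% limit, 107 HCC and 161 low-AFP cells had 3 to 4% of the 5 selecting transcripts, and just inside it 64 HCC and 187 low-AFP cells had 4 to 5%. Ahsg was at 3510.3 CPM outside and 4332 CPM inside in HCC, and at 2075 and 2623 CPM in low-AFP. The macrophage gene Lyz2 was at 66.5 CPM outside and 123 CPM inside in HCC, and at 167 and 75.1 CPM in low-AFP. The selecting transcripts themselves are given as a description: Alb was at 27151 CPM in HCC and 38408 CPM in low-AFP, Apoa1 at 18869.5 and 8310.2 CPM, Apoa2 at 16839.8 and 23349.9 CPM, Apoc3 at 6222 and 12598 CPM, and Ttr at 10545 and 12180.4 CPM.

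Genes at least 2-fold higher in HCC hepatocytes included the steroid-metabolising enzymes Cyp2a4 and Akr1c18, 13 of 18 tested oncofetal and carcinoma genes with Afp among them, the cell cycle inhibitors Cdkn2a and Cdkn2b, and 9 of 20 glutathione and NRF2 genes. Lower genes included 7 of 14 urea cycle and periportal genes with Cps1, 11 of 19 genes of amino acid breakdown, the glucose genes Pck1 and G6pc, and the bile acid transporter Slc10a1. A gene was tested when it reached 10 CPM on either side, and called when the levels, each with 10 CPM added, differed at least 2-fold. Of 7450 such genes, 386 (5.18%) were higher in HCC and 231 (3.10%) lower, and the median log2 fold of all tested genes was 0.06. With thinned cells the balance turned, with 560 (7.30%) of 7673 genes higher and 948 (12.4%) lower. Thinned HCC had 162 cells and thinned low-AFP 1482, so weak genes rest on few HCC UMIs, as for Cyp8b1 at 6.69 CPM from 2 cells. The part of this in the turn was not tested. Of the 386 higher genes 264 were also called higher in thinned cells, and of the 231 lower genes 208 were also called lower. Among the higher genes 148 were below their level in Ptprc-positive HCC cells, and 18 encoded ribosomal proteins. By the same rule 15 (0.216%) of 6943 genes were higher and 6 (0.0864%) lower in high-AFP over low-AFP, and 37 (0.534%) of 6929 were higher and 56 (0.808%) lower in control over low-AFP. All of these comparisons share the low-AFP library. They were not matched for depth or cell number. High-AFP had 2553 kept cells at a median of 16587 UMIs and control 2776 at 11557.5, against 328 at 1992 in HCC. The part of this in the counts was not tested.

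**Figure D2:**
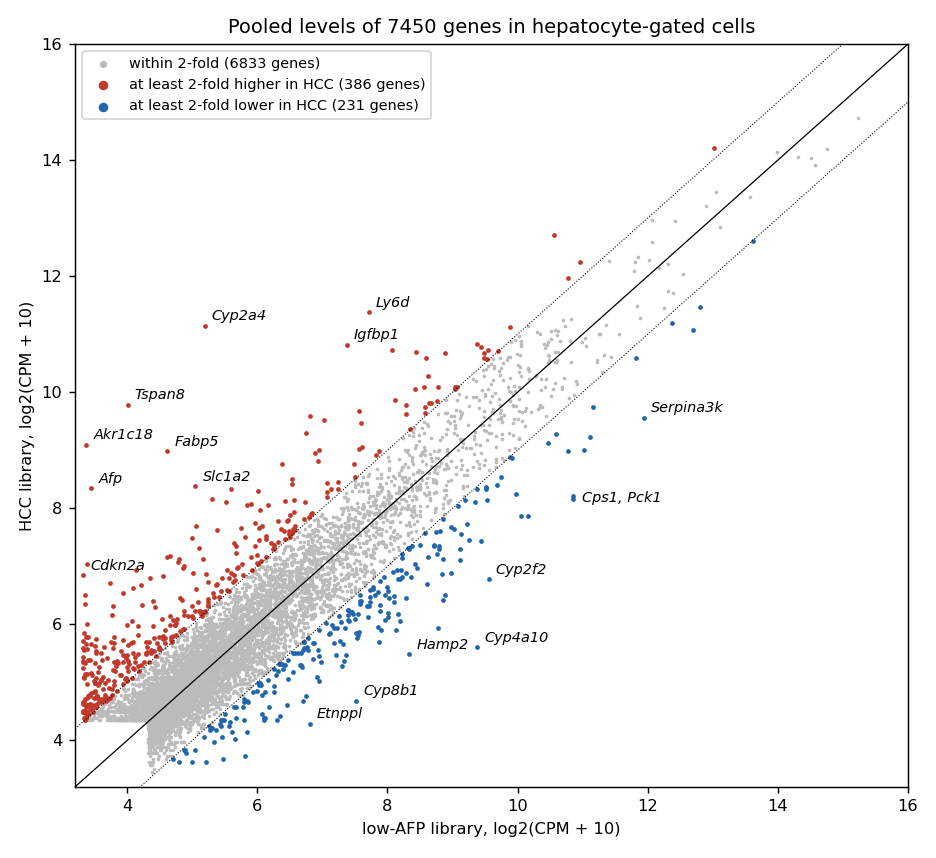
Each dot is 1 gene, with its pooled level in low-AFP (horizontal) and in HCC (vertical), both as log2(CPM + 10). The solid line marks equal levels and the dotted lines a 2-fold difference, with the 386 higher genes in red and the 231 lower genes in blue.

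With 10 CPM added and all cells pooled, the gene with the largest fold was Cyp2a4, a cytochrome P450 that hydroxylates steroids and is more abundant in livers of female mice (ENSMUSG00000074254). Its level was 2254 CPM (2190.4 to 2319, exact 95% Poisson interval) in HCC, 26.5 CPM (24.8 to 28.4) in low-AFP, 37.2 CPM in high-AFP and 3.68 CPM in control. HCC stood apart from the other 3 libraries, with a ratio to low-AFP of 85.0 (79.0 to 91.6) and a log2 fold of 5.95, or 5.04 after thinning, where Akr1c18 (5.49) and Tspan8 (5.42) were above it. Below 2000 UMIs per cell Cyp2a4 was at 122 CPM in low-AFP and 793 CPM in HCC. In cells of 20000 UMIs and more it was at 25.6 and 3174 CPM, and 31 such HCC cells held 4229 of its 4740 UMIs. A Cyp2a4 UMI was found in 40.1% of thinned HCC cells, 3.24% of thinned low-AFP cells and 4.25% of thinned Ptprc-positive HCC cells, all at 2000 UMIs, and in 41.5% and 8.20% of the unthinned HCC and low-AFP cells. Its neighbour Cyp2a5, which hydroxylates coumarin and nicotine, was at 333 CPM in HCC, 82.8 in low-AFP, 151 in high-AFP and 29.4 CPM in control, a log2 fold of 1.89 (1.43 thinned). These genes are nearly identical, so how reads were divided between them is uncertain.

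The 250 bases before their start sites show how alike they are. The Cyp2a4 window spans chr7:26306942-26307191 and the Cyp2a5 window chr7:26835089-26835338 of GRCm38.p6, both on the plus strand, from RefSeq. Capitals mark GTTAAT, part of the binding motif of the hepatocyte factor HNF1, TTGCNNAA, the core of the C/EBP motif, and the TATA box letters TATAAA.
Cyp2a4: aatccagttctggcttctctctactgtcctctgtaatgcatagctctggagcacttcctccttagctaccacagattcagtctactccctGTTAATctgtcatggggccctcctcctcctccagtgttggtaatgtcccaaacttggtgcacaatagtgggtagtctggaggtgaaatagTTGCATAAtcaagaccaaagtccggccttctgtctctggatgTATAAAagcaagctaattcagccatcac
Cyp2a5: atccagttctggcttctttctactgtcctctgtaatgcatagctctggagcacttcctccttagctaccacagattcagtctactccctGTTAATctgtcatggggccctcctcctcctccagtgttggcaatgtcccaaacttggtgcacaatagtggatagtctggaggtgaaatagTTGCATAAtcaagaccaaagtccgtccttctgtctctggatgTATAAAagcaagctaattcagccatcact
Over 249 aligned bases 245 were identical (98.4%), and all 3 motifs stood in the same order in both. Searched on both strands, TATAAA was found in 12.97% of 27025 such windows of mouse genes, GTTAAT in 6.52% and TTGCNNAA in 9.55%. Such a match describes letters only and says nothing of binding.

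Tspan8, encoding a membrane tetraspanin, was at 870.3 CPM (831 to 911) in HCC, 6.08 in low-AFP, 6.77 in high-AFP and 0.540 CPM in control. The ratio to low-AFP was 143 (123 to 167) and the log2 fold 5.77, or 5.42 after thinning. Akr1c18, whose enzyme inactivates progesterone, had 1126 UMIs in HCC and 11 in low-AFP, or 535 CPM (505 to 568) and 0.345 CPM (0.172 to 0.617). High-AFP had 2.09 CPM and control 0.0721 CPM of Akr1c18, so it was nearly absent outside HCC, and its ratio to low-AFP was 1554 (865 to 3121), with a log2 fold of 5.72 (5.49 thinned). Of thinned HCC cells 31.5% held a Tspan8 UMI and 36.4% an Akr1c18 UMI, against 0.472% and 0.0675% in low-AFP and 1.76% and 1.19% in Ptprc-positive HCC cells. Without thinning the HCC shares were 29.6% and 35.1%, and the low-AFP shares 3.23% and 0.383%.

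Afp (ENSMUSG00000054932), the gene behind the group labels, was at 315 CPM (292 to 340.2) in HCC from 663 UMIs, and at 0.940 CPM (0.634 to 1.34) in low-AFP from 30 UMIs. High-AFP had 3.51 CPM and control 0.649 CPM. HCC exceeded low-AFP by a ratio of 335 (233 to 501), a log2 fold of 4.89, or 4.73 after thinning. Ptprc-positive cells had 14.0 CPM of Afp in HCC and 3.01 CPM in low-AFP, so the low-AFP hepatocytes were below the Ptprc-positive cells of their own library. Thinned cells with an Afp UMI were 26.5% in HCC, 0.202% in low-AFP and 1.12% among Ptprc-positive HCC cells, and unthinned 28.7% and 1.04% in HCC and low-AFP. The 250 bases before the Afp start, at chr5:90490464-90490713 on the plus strand of GRCm38.p6 (RefSeq), hold the same 3 motifs, in capitals, and are shown because Afp is the classic reactivated gene of this tumour.
Afp: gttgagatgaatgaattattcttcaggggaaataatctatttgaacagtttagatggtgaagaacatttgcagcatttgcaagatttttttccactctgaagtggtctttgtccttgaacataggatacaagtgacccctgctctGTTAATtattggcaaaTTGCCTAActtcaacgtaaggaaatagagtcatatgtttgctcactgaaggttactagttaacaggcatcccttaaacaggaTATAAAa
GTTAAT began 105 bases before the start, TTGCNNAA 89 bases and TATAAA 7 bases before it.

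Among 18 tested oncofetal and carcinoma genes 13 were called higher and 1 lower, where 5.18% of all tested genes were higher. The median log2 fold was 1.66 (1.19 thinned). Gpc3, the fetal proteoglycan glypican, was at 0.125 CPM in low-AFP and 47.6 CPM in HCC. H19, a fetal noncoding RNA, had 5.98 CPM in low-AFP and 0 UMIs in HCC, which allows up to 1.43 CPM, and Igf2, a fetal growth factor, had 0 UMIs in both. Ly6d, encoding a lipid-anchored surface protein, was at 2647 CPM (2578 to 2717) in HCC, 199 in low-AFP, 202 in high-AFP and 7.28 CPM in control, a log2 fold of 3.67 (2.66 thinned). Below 2000 UMIs per cell Ly6d was at 216 and 595 CPM in low-AFP and HCC. From 2000 to below 5000 UMIs it was within 2-fold at 382 and 706 CPM, and from 20000 UMIs at 204 and 3679 CPM. Ptprc-positive cells had 205 CPM of Ly6d in low-AFP, close to the hepatocytes of that library, and 360.2 CPM in HCC. A Ly6d UMI was found in 21.5% of thinned low-AFP hepatocytes and 15.9% of thinned Ptprc-positive cells of that library, against 59.9% and 16.4% in HCC. The simple epithelial keratins Krt18 and Krt8 were at 375 and 1539 CPM and at 368 and 1079 CPM in low-AFP and HCC. Tff3, a secreted trefoil peptide, was at 5.26 and 42.8 CPM in the same order. Sox9, a progenitor and bile duct factor, was the member that was lower, at 62.4 and 13.8 CPM. Spp1, osteopontin, was at 335 and 1654 CPM, but 1 HCC cell held 43.8% of its UMIs. Its direction turned in shallower cells: below 2000 UMIs Spp1 was at 219.9 CPM in low-AFP and 126 in HCC, and from 2000 to below 5000 UMIs at 215 and 103 CPM. Anxa2 and S100a11, calcium-binding proteins, were at 303 and 257 CPM in HCC against 54.2 and 47.6 CPM in low-AFP, and at 402 and 669 CPM in Ptprc-positive HCC cells. Several members were known to be high in this series when the list was made, so its direction is no independent evidence.

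Genes that restrain the cell cycle and genes of cell division were both higher in HCC. Cdkn2a, a tumour suppressor locus active in senescence, had 221 UMIs in HCC and 1 in low-AFP, or 105 CPM (91.7 to 119.9) and 0.0313 CPM, a ratio of 3354 with a counting interval of 596 to 133077. Its neighbour Cdkn2b was at 80.8 CPM (69.1 to 94.0) in HCC and 0.157 CPM in low-AFP, and high-AFP and control had at most 0.432 CPM of either. UMIs of Cdkn2a and Cdkn2b were found in 9.26% and 9.88% of thinned HCC cells, in 2.23% and 0.670% of thinned Ptprc-positive HCC cells and in 0 of 1482 thinned low-AFP cells, which allows a share of up to 0.202%. Cdkn1a, the p53 target that encodes another such inhibitor, was at 82.6 and 354 CPM in low-AFP and HCC. Of 12 tested p53 targets and cyclin genes 5 were higher, among them the apoptosis genes Phlda3 (5.23 and 83.2 CPM) and Bax (55.9 and 242 CPM), and 1 was lower, Ccnd1, cyclin D1 (147 and 55.6 CPM). That list's median of 0.80 became -0.04 after thinning, and over all tested genes 5.18% were higher. Of 16 tested cell cycle genes 12 were higher and 0 lower, with a median of 1.35 (1.58 thinned). Their levels were low: Birc5, a survival and spindle protein, was at 2.48 and 39.0 CPM, and Ube2c, which marks mitotic proteins for destruction, at 1.38 and 39.5 CPM. A single HCC cell held 92.1% of the UMIs of Top2a, a topoisomerase, and Ptprc-positive HCC cells had 48.9 CPM of Ube2c and 32.7 CPM of Birc5.

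The other 8 of the 15 named genes with the largest folds were of mixed function. Igfbp1, which binds insulin-like growth factors and is induced in fasting, was at 1797 CPM (1740.3 to 1855) in HCC, 156 in low-AFP, 94.1 in high-AFP and 215 CPM in control, a log2 fold of 3.45 (2.28 thinned). Fabp5, a fatty acid binding protein, was at 497 CPM in HCC, 14.6 in low-AFP, 32.7 in high-AFP and 94.8 CPM in control. By depth these genes ran opposite ways: in HCC cells below 2000 UMIs Fabp5 was at 937 CPM and Igfbp1 at 288 CPM, and in those of 20000 UMIs and more at 198 and 2701 CPM. Ptprc-positive HCC cells had 259 CPM of Fabp5 and 108 CPM of Igfbp1. Slc1a2, a glutamate transporter of cells around the central vein, was at 23.1 and 322 CPM in low-AFP and HCC, with 27.0% of its HCC UMIs in 1 cell and a log2 fold of 3.33 (1.85 thinned). Cd63, a tetraspanin of endosomes, was at 29.6 and 275 CPM, and Serpinb6a, an intracellular protease inhibitor, at 7.55 and 112 CPM beside 97.3 CPM in Ptprc-positive HCC cells. Scd2, a fatty acid desaturase, was at 3.29 and 94.6 CPM, a log2 fold of 2.98 (1.43 thinned), and Tstd1, a sulfurtransferase-like protein, at 102 and 757 CPM. Tnfrsf18, encoding GITR, a TNF receptor family member found on T cells, was at 0.188 and 71.3 CPM. Ptprc-positive HCC cells had 54.7 CPM of it. In the cells without any UMI of another cell type's markers, Slc1a2 had a log2 fold of -1.49, Tnfrsf18 -0.055 and Scd2 -0.55. These genes also varied with depth. In HCC cells of 20000 UMIs and more Slc1a2, Tnfrsf18 and Scd2 were at 485, 110 and 140 CPM. From 2000 to below 5000 UMIs they were at 31.6, 7.89 and 7.89 CPM. Holding no marker UMI depends on depth too, and the part of depth and of other cells' RNA was not tested.

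Tmsb10, Arpc1b, Ier3, Ccl5 and Fosb had the largest folds among the ranked higher genes that lay below their level in Ptprc-positive HCC cells. Haemoglobin genes were left out of this ranking, with Hbb-bs at 0.470 CPM in low-AFP and 122 CPM in HCC. Tmsb10, an actin-binding peptide, was at 23.2 CPM in low-AFP, 197 in HCC and 2955 CPM in Ptprc-positive HCC cells. Ccl5, a chemokine of T cells, was at 7.02, 88.5 and 8257 CPM in the same order, and Arpc1b, an actin-branching subunit, at 35.7, 267 and 1068 CPM. The early response genes Ier3 and Fosb were at 69.9 and 135 CPM in HCC against 3.70 and 15.1 CPM in low-AFP, and at 237 and 179.8 CPM in the Ptprc-positive HCC cells. The log2 fold of Ier3 was 2.54, and 0.47 after thinning, and that of Fosb 2.52 and 1.44.

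**Figure D3:**
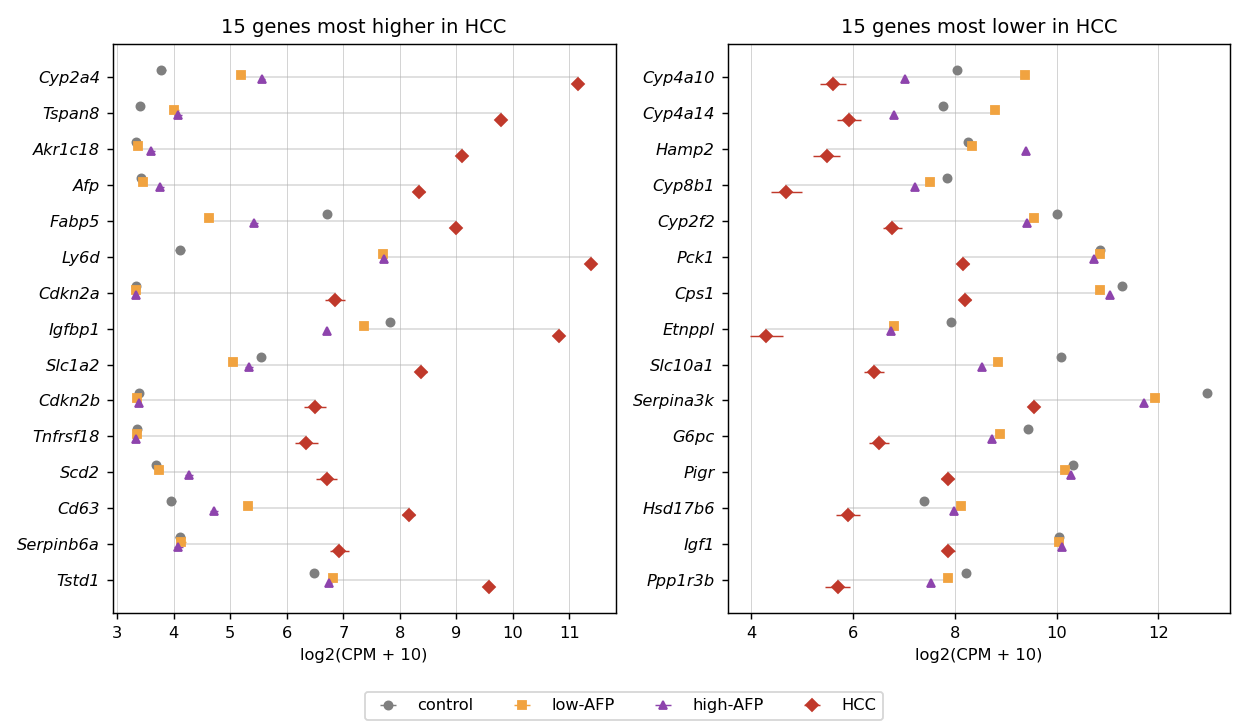
Pooled levels as log2(CPM + 10) of the 15 named genes with the largest (left) and the 15 with the smallest (right) fold, in the kept cells of each of the 4 libraries. Bars are exact 95% Poisson intervals, mostly smaller than the symbols. In each of the 30 genes HCC lies outside the range of the other 3 libraries, as for Cyp2a4 at 2254 CPM against at most 37.2 CPM. The genes were picked for their extreme folds against low-AFP, so this is no independent evidence. Of all called genes, 321 of 386 higher and 181 of 231 lower passed 2-fold against each of the other 3 libraries.

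The 15 named genes with the smallest folds included 2 fatty acid hydroxylases, Cyp4a10 and Cyp4a14, and 2 bile acid genes, Cyp8b1 and Slc10a1. Cyp4a10, a fatty acid hydroxylase induced by PPAR alpha, was at 38.5 CPM (30.6 to 47.9) in HCC, 655 CPM (646 to 664) in low-AFP, 119.5 in high-AFP and 255 CPM in control. It was 17.0-fold lower in HCC than in low-AFP (13.7 to 21.4), with a log2 fold of -3.78, or -4.15 after thinning. Its relative Cyp4a14 was at 50.9 CPM in HCC, 431 in low-AFP, 101.05 in high-AFP and 206 CPM in control, with 55.1% of the HCC UMIs in 1 cell. Of both genes low-AFP had the most and HCC the least, with high-AFP and control between them. Cyp8b1, the bile acid enzyme that directs synthesis to cholic acid, was at 15.7 CPM (10.8 to 22.0) in HCC, 174 in low-AFP, 138 in high-AFP and 221 CPM in control. Slc10a1, the main bile acid uptake transporter, was at 75.1, 453, 359 and 1074 CPM in the same order. Thinned cells with a Slc10a1 UMI were 49.3% in low-AFP, 8.02% in HCC and 0.268% among Ptprc-positive HCC cells, and unthinned 75.9% and 16.2% in low-AFP and HCC.

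Both hepcidin genes were lower as well. Hamp encodes hepcidin, the hormone that blocks iron export, and was at 506 CPM in HCC, 2074 in low-AFP, 3274 in high-AFP and 2189 CPM in control, a log2 fold of -2.01 (-2.13 thinned). A single HCC cell held 41.8% of those Hamp UMIs. Its copy Hamp2 was at 34.7 (27.2 to 43.6), 313, 661 and 295 CPM in the same order, a log2 fold of -2.85 (-2.98 thinned), so both were highest in high-AFP and lowest in HCC. As the genes resemble each other, the split of reads between them is uncertain. Of 14 tested iron genes 4 were lower and 0 higher, where 3.10% of all tested genes were lower. The others beside the hepcidin genes were Tfr2, an iron sensor upstream of hepcidin (184 and 74.2 CPM in low-AFP and HCC), and Tfrc, the transferrin receptor (41.1 and 10.9 CPM).

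The windows of 250 bases before the Hamp and Hamp2 starts are on the minus strand of GRCm38.p6 (RefSeq), at chr7:30944030-30944279 and chr7:30924182-30924431. They are shown because the copies differed in the same direction and are alike in sequence. Capitals mark GGCGCC, the core of the BMP response element of hepcidin, and TTCNNNGAA, the STAT motif.
Hamp: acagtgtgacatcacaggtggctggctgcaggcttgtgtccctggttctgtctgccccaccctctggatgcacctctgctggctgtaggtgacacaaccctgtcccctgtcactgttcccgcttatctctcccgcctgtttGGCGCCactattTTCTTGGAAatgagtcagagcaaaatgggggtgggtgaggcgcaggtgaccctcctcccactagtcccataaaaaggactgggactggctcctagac
Hamp2: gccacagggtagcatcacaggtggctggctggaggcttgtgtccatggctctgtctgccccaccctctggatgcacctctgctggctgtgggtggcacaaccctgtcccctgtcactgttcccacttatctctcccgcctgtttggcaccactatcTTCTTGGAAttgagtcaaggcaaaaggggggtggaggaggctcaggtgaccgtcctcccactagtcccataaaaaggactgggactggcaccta
Of 247 aligned bases 227 were identical (91.9%). TTCNNNGAA was present in both windows, 97 bases before the Hamp start and 94 bases before the Hamp2 start, and GGCGCC was found in the Hamp window, 109 bases before the start, but these letters were not in that of Hamp2. Over all 27025 windows 7.18% held TTCNNNGAA and 9.54% held GGCGCC, searched on both strands.

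Glucose release and growth hormone genes were among the lowest too. Pck1, which commits carbon to gluconeogenesis, was at 277 CPM (255 to 301) in HCC, 1829 in low-AFP, 1689 in high-AFP and 1844 CPM in control, a log2 fold of -2.68 (-2.54 thinned). G6pc, which frees glucose for export, was at 462 and 80.8 CPM in low-AFP and HCC, and the glucose transporter Slc2a2 at 425 and 138 CPM. Of 15 tested genes of glucose output 4 were lower and 1, Igfbp1, higher, with a median of -0.60 (-0.64 thinned). Over all tested genes 3.10% were lower and 5.18% higher. Ppp1r3b, which brings phosphatase to glycogen, was at 224 and 41.8 CPM. Igf1, the growth factor that liver makes under growth hormone, was at 1048 and 224 CPM, and the growth hormone receptor Ghr at 411 and 154 CPM. In the list of growth hormone and male-biased genes 5 of 17 were lower, including Mup3, a urinary protein (6604 and 2140.5 CPM), and Cyp4a12a, a male-biased P450 (27.2 and 2.38 CPM), and 1 was higher, Igfbp3, which binds insulin-like growth factors (0.0313 and 12.8 CPM, from 1 UMI in low-AFP). Mup and Cyp4a12 genes are families of close copies whose reads may be shared.

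Among the lowest 15 were also secreted, transport and lipid genes. Serpina3k, a plasma protease inhibitor from a family of close copies, was at 3917 and 743 CPM in low-AFP and HCC. Pigr, which carries immunoglobulin A into bile, was at 1131 and 222 CPM. Hsd17b6, a steroid dehydrogenase, was at 270.3 and 49.5 CPM, and Etnppl, which breaks down phosphoethanolamine, at 102 and 9.51 CPM. Their log2 folds lay between -2.52 and -2.24.

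Genes of the periportal zone were lower in HCC and several of the pericentral zone were higher. Of 14 tested urea cycle and periportal genes 7 were lower and 0 higher, the median log2 fold being -1.12 (-1.11 thinned), where 3.10% of all tested genes were lower. In cells of at most 15% mitochondrial UMIs that median was -0.87. Cps1, the entry enzyme of the urea cycle, was at 285 CPM (262 to 309) in HCC, 1828 in low-AFP, 2105 in high-AFP and 2499.5 CPM in control. Cyp2f2, a P450 of periportal cells, was at 99.4, 742, 674 and 1022 CPM in the same order, and Hal, which breaks down histidine, at 283 and 56.6 CPM in low-AFP and HCC. The later enzymes of the urea cycle differed less and stayed within 2-fold. Otc was at 563 and 315 CPM, Ass1 at 1849 and 979 CPM, and Arg1 at 927 and 501 CPM. Of 17 tested pericentral genes 5 were higher and 1 lower, with a median of 0.62 (0.10 thinned), where 5.18% of all tested genes were higher. Glul, glutamine synthetase of the innermost pericentral layer, was at 257 and 1694 CPM, and Lect2, a secreted Wnt target, at 120.5 and 727 CPM. Oat, which turns ornithine towards glutamate, was at 178 and 804 CPM, and Cyp1a2, a drug-metabolising P450, at 43.6 and 193 CPM. A minority of the deepest HCC cells held these 4 genes. Of 31 HCC cells thinned to 20000 UMIs, 8 had at least 5 UMIs of Glul, 11 of Lect2, 8 of Oat and 7 of Cyp1a2. Of 861 such low-AFP cells 59, 116, 82 and 33 did, in the same order. Cyp2e1, the ethanol-oxidising P450, was within 2-fold at 754 and 903 CPM, and Aldh1a1, a retinal dehydrogenase, was lower at 1535 and 610.1 CPM. Among 12 tested Wnt targets 5 were higher, with the feedback inhibitor Nkd1 at 0.407 and 37.6 CPM, and 1 was lower, Ccnd1. Their median of 0.83 became -0.15 after thinning.

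Many genes of amino acid breakdown and some drug-metabolising P450 genes were lower. Of 19 tested genes of amino acid breakdown 11 were lower and 0 higher, with a median of -1.05 (-0.89 thinned). Over all tested genes 3.10% were lower and 5.18% higher. Mat1a, which makes the methyl donor S-adenosylmethionine, was at 1748 and 498 CPM in low-AFP and HCC, and Bhmt, which remethylates homocysteine, at 3617 and 1532 CPM. Tat, which starts tyrosine breakdown, was at 680.0 and 164 CPM, and Cth, which makes cysteine, at 339.7 and 116 CPM. Among 20 tested drug-metabolising P450 genes 6 were lower, including Cyp2j5 (379 and 93.7 CPM) and Cyp3a25 (247 and 63.2 CPM), and 2 higher, Cyp1a2 and Cyp2a5. The median was -0.66, and -1.02 with 11 lower after thinning, where 12.4% of all tested genes were lower. Cyp3a11, an abundant P450, was within 2-fold at 744 and 393 CPM, with 49.1% of the HCC UMIs in 1 cell. Of 15 bile acid genes 5 were lower and 0 higher. Besides Cyp8b1 and Slc10a1 these were Abcb11, the bile salt export pump (226 and 70.9 CPM), Akr1d1, which reduces bile acid precursors (177 and 46.1 CPM), and Slc27a5, which activates bile acids (210.2 and 89.4 CPM).

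Fat metabolism was lower in part. Of 15 tested genes of new fat synthesis 5 were lower and 0 higher, with a median of -0.54, or -1.06 with 8 lower after thinning, where 12.4% of all tested genes were lower. Scd1, the desaturase that makes monounsaturated fat, was at 5316 and 2331 CPM in low-AFP and HCC, and Fasn, fatty acid synthase, at 419 and 182 CPM. Elovl5, an elongase, was at 543 and 128 CPM, and Srebf1, the factor that drives these genes, at 181 and 74.2 CPM. Of 21 genes of fatty acid oxidation and PPAR alpha targets 6 were lower and 0 higher, where 3.10% of all tested genes were lower. Among the 6 were Ehhadh, an enzyme of peroxisomal oxidation (228 and 49.9 CPM), and Cpt1a, which admits fatty acids to mitochondria (202 and 86.1 CPM). Ppara itself was at 67.2 and 67.1 CPM, and the mitochondrial enzymes Acadm (422 and 379 CPM) and Acaa2 (712 and 964 CPM) were within 2-fold. In the lipid droplet list Fabp5 alone of 14 genes passed 2-fold, and the droplet coat gene Plin2 was at 627 and 957 CPM.

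Glutathione transferases were higher. Of 20 tested genes of glutathione and the NRF2 response 9 were higher and 0 lower, with a median of 0.86 (1.06 thinned, with 11 higher), where 5.18% of all tested genes were higher. Gstm1, an abundant liver transferase, was at 1741 and 3979 CPM in low-AFP and HCC, Gstm2 at 49.5 and 260.1 CPM and Gstm3 at 62.0 and 255 CPM. Gsta4 was at 84.4 and 233 CPM, and Gstp1, a transferase studied in liver carcinogenesis, at 427 and 1075 CPM. The carbonyl reductases Cbr1 and Cbr3 were at 95.5 and 214 CPM and at 13.2 and 58.0 CPM. Not every member differed: Nqo1, a standard NRF2 target, was at 9.96 and 18.5 CPM, and the glutathione synthesis genes Gclc and Gclm were at 521 and 407 CPM and at 435 and 412 CPM. Gsta1 was at 86.0 and 197 CPM and the close copy Gsta2 at 67.9 and 65.2 CPM, and how reads were split within the Gsta and Gstm families is uncertain.

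Cytoskeletal and ribosomal genes were also higher, beside the blood cell markers given above. Over all tested genes 5.18% were higher. Of 18 tested genes of cytoskeleton and adhesion 11 were higher and 0 lower, with a median of 1.27 (1.34 thinned), or 0.52 with every cell weighted the same. Beside Krt8, Krt18 and Cd63, the keratin Krt23 was at 2.66 and 21.9 CPM in low-AFP and HCC, with 1.71 CPM in Ptprc-positive HCC cells. Tmsb4x, which binds actin, Vim, the filament protein vimentin, and Lgals3, a lectin, were at 302, 19.5 and 74.7 CPM in HCC. Ptprc-positive HCC cells held 19798 CPM of Tmsb4x, 1156 of Vim and 1156 of Lgals3, far more than the hepatocytes. Of 25 ribosomal protein genes 12 were higher and 0 lower, with a median of 0.99 (1.00 thinned), and Rpl5 was at 303 CPM in low-AFP, 868 in HCC and 1708 CPM in Ptprc-positive HCC cells.

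Most transcription factors that define hepatocytes and most other secreted products were within 2-fold over all cells pooled. Of all tested genes 5.18% were higher and 3.10% lower, and after thinning 7.30% and 12.4%. Of 17 tested hepatocyte factors 1, Onecut1, was higher (2.91 and 16.6 CPM in low-AFP and HCC), 0 were lower, and the median was -0.19. After thinning 0 were higher and 3 lower, with Onecut1 at a log2 fold of 0.74, and the median was -0.54. Beside the shares of all genes these calls were too few to describe the list. Foxa3 was at 60.4 and 70.4 CPM and Cebpa at 233 and 160.3 CPM. The lower ones after thinning were Prox1 (-0.74 pooled and -1.73 thinned), Mlxipl (-0.07 and -1.27) and Rxra (-0.66 and -1.03), which act in development, carbohydrate response and nuclear receptor pairing. Among 19 other plasma proteins Apom and Kng2, of lipoproteins and the kinin system, were higher (301 and 778 CPM, 170.0 and 423 CPM). Apoa5, which controls plasma triglyceride, and Hrg, a histidine-rich glycoprotein, were lower (995 and 293 CPM, 535 and 253 CPM). Trf, transferrin, was at 8439.6 and 11196 CPM, and Apoe at 16245 and 17997 CPM. Of 20 acute phase genes Lcn2, which binds bacterial iron carriers, and Socs3, a brake on cytokine signals, were higher, at 267 and 921 CPM and at 8.74 and 70.4 CPM, and Crp, C-reactive protein, was lower with Hamp, at 453 and 129 CPM. Socs3 was at 125 CPM in Ptprc-positive HCC cells, and its log2 fold was 0.52 after thinning. Saa1, the serum amyloid gene with close copies, was at 479 and 402 CPM.

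**Figure D4:**
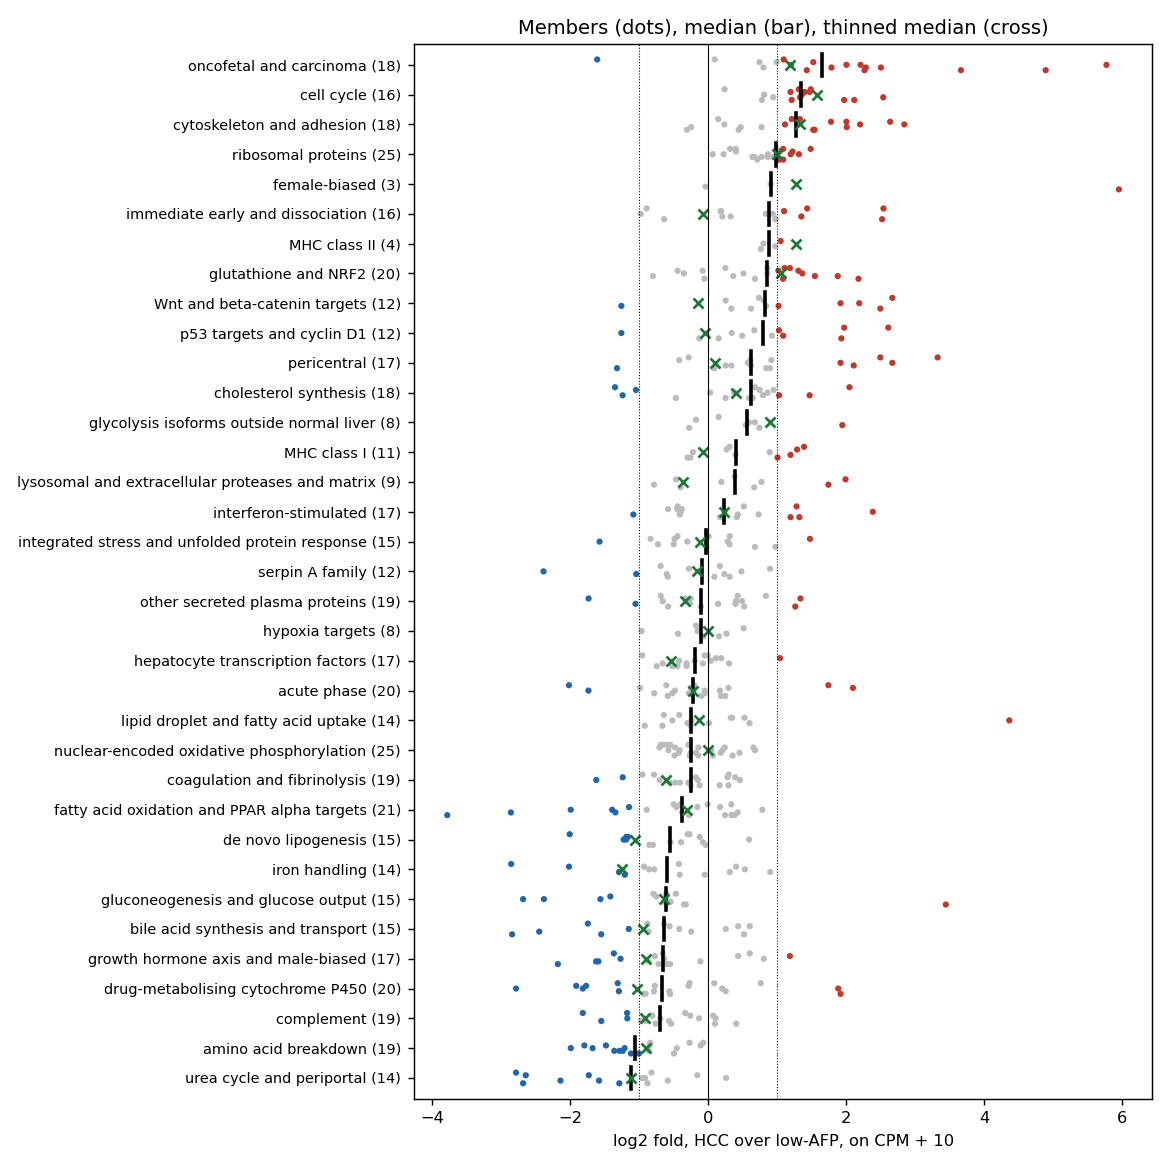
Log2 fold of HCC over low-AFP for each tested member (dots, red at least 2-fold higher, blue at least 2-fold lower) of 35 gene lists, ordered by median. Bars are list medians, crosses medians in thinned cells, and numbers in brackets count tested members. The urea cycle and periportal list lies lowest, at -1.12, and the oncofetal and carcinoma list highest, at 1.66.

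The HCC hepatocytes were not alike. This was examined, after the values above had been seen, in cells of at least 20000 UMIs thinned to 20000 UMIs each, 31 in HCC and 861 in low-AFP, calling a gene carried at 5 or more UMIs. Cyp2a4 was carried by 19 of 31 HCC cells and 15 of 861 low-AFP cells, Akr1c18 by 19 and 0, Tspan8 by 16 and 5, Afp by 14 and 0, and Cdkn2a by 8 and 0. At least 1 of Cyp2a4, Akr1c18, Afp and Cdkn2a was carried by 21 of 31 HCC cells (67.7%), and all 4 by 4 cells. In low-AFP 15 of 861 cells (1.74%) carried any. The 4 genes were taken from those with the largest folds, and these 31 cells held 64.8% of the HCC UMIs behind the folds. The contrast between the libraries is therefore no independent evidence.

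These genes came in overlapping sets. The 16 cells with Tspan8 and the 8 with Cdkn2a all carried Cyp2a4 too, and 17 of the 19 cells with Akr1c18 did. Afp and Akr1c18 were carried together in 12 cells. Glul was carried by 8 HCC cells, none of which carried Cdkn2a or Cps1, and 7 of the 8 carried the pericentral transporter Slc1a2 as well. Of these Glul cells 5 also carried Akr1c18 and Afp, and 3 carried Cyp2a4. In low-AFP 18 of the 59 cells with Glul carried Cps1.

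Periportal genes and Hamp were carried by few of the deep HCC cells. Cps1 was carried by 11 of 31 HCC cells and 774 of 861 low-AFP cells, Cyp2f2 by 3 and 587, Pck1 by 7 and 800, and Hamp by 5 and 569. None of the 3 HCC cells with Cyp2f2 carried Cyp2a4, whereas 6 of the 11 with Cps1 did. The remaining 10 HCC cells carried none of Cyp2a4, Akr1c18, Afp and Cdkn2a. Among these 10 cells 5 carried Cps1, 3 carried Glul and none both. Ly6d was carried by 26 of 31 HCC cells, including all 19 with Cyp2a4, and by 163 of 861 in low-AFP. Spp1 was carried by 13 and 124 cells, and 11 of those 13 also carried Tspan8. Hnf4a was carried by 8 of 31 and 271 of 861 cells, at a median of 3 UMIs on both sides.

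**Figure D5:**
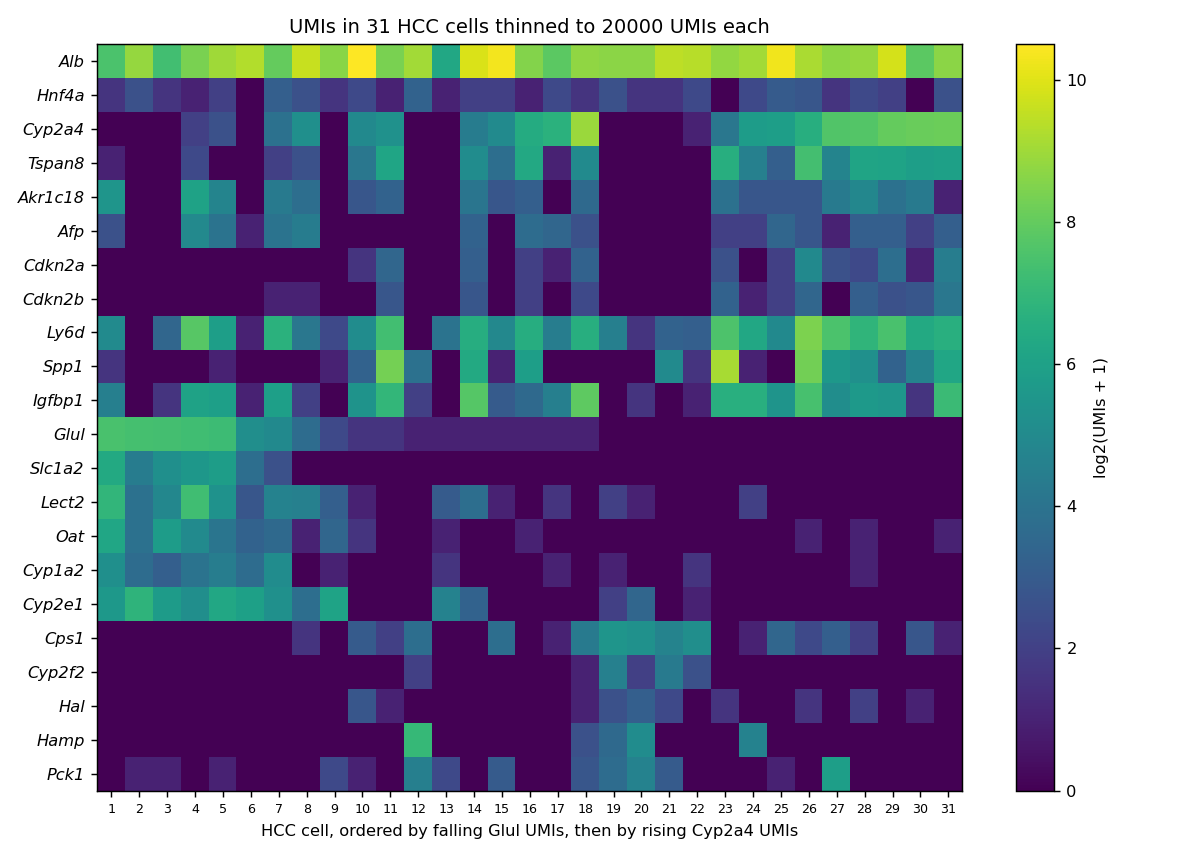
UMIs, as log2(UMIs + 1), of 22 genes (rows) in the 31 HCC cells of at least 20000 UMIs (columns), each thinned to 20000. Cells are ordered by falling Glul and then rising Cyp2a4: 7 of the 8 cells with Glul at the left carry Slc1a2, and the 16 cells with Tspan8 all carry Cyp2a4.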

How the data were processed

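Per the labels' protocols, livers were dissociated and libraries made with a 10x Genomics 3' kit (version 2). The authors deposited UMI counts per gene and barcode, whole numbers for 31053 genes. Cell Ranger, Seurat 3, R 3.0 and the mm9 build are named per the submitters' processing notes, and Cell Ranger was version 3.0.2 per the file headers. No coordinate of the files was used. Promoter windows came from a RefSeq table for GRCm38.p6, and motifs were not counted over called genes because under 80% of tested genes had a window.

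From the counts, cells were selected as the report states, UMIs pooled per library and scaled to 1000000 nuclear-encoded UMIs (numpy 2.4.6, pandas 2.3.3). Intervals are exact Poisson, conditional binomial for ratios, and Clopper-Pearson for shares (scipy 1.17.1). They cover counting error only, at 95%. A count of 0 was taken to allow up to 3 counts. With 1 library a side no test was made. Doublets were not removed; leaving out the highest Scrublet scores (scanpy 1.11.5) was an alternative. The calling rule was tested on simulated data. Thinning used seed 1.

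Named genes were the 15 largest folds each way among genes of at least 50 CPM and 50 UMIs on the higher side. On that side their level also had to reach that of the Ptprc-positive cells of the same library. Added were 5 higher genes failing only that last condition, and list members. Some list members are not reported here. Members and lists were chosen with earlier results of these data known. A depth limit of 20000 UMIs, leaving out the 10 largest cells, and leaving out each gene's top cell were added after seeing the data.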

Additional observations from a re-analysis of the deposited data

How the results depend on the processing

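No paired analysis was possible because each group was 1 library. The count of genes higher in HCC, 386, and that of genes lower in HCC, 231, became 370 and 888 with every cell weighted the same, 560 and 948 after thinning, and 706 and 469 with a pseudocount of 1 CPM. At a selecting share of at least 10% they were 493 and 764, and at 20%, with 4 HCC and 6 low-AFP cells, 771 and 3283. Cells without any marker UMI of another type, 65 in HCC and 433 in low-AFP, gave 699 and 1747. Without the 10 largest cells of each library 482 were higher and 445 lower, at a minimum of 50 CPM 204 and 193, and among genes at or above the Ptprc-positive level 238 and 224. Other settings stayed within 1.5 times both counts.

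Of 35 named genes, all had the same direction in 13 of 15 settings, the exceptions being the 20% share and the cells without marker UMIs. At the 20% share the log2 folds of Ly6d, Scd2 and Ier3 were -6.43, -3.88 and -2.70, and the oncofetal and cytoskeletal medians were both -0.42. In cells without marker UMIs those of Slc1a2, Scd2, Tnfrsf18 and Fosb were -1.49, -0.55, -0.055 and -0.10. With every cell weighted the same, 3 of the 5 list medians past 2-fold stayed past it, those of cytoskeleton and adhesion (0.52) and amino acid breakdown (-0.82) did not, and 27 of 35 list medians had the same sign. In cells without marker UMIs 2 of the 5 stayed past 2-fold and 28 of 35 had the same sign. At the 20% share these counts were 2 and 18. The cause was not tested, but few cells remained at the 20% share and without marker UMIs. Passing the marker condition also depends on a cell's depth.

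Depth limits the HCC side: 2102814 nuclear-encoded UMIs came from 328 cells, 20 of which held 51.1% of the UMIs of these cells.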

Other observations

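Genes of cholesterol synthesis differed in both directions. Of 18 tested genes 3 were higher in HCC and 3 lower, beside 5.18% and 3.10% of all tested genes. The median log2 fold was 0.62 (0.40 thinned). Fdps, which makes farnesyl diphosphate, was at 113 and 501 CPM in low-AFP and HCC, and Sqle, the squalene epoxidase, at 15.4 and 60.4 CPM. Insig1, which holds back this pathway, was lower at 313 and 147 CPM.

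Complement was lower for some members. Of 19 tested genes 4 were lower and 0 higher, with a median of -0.69 (-0.91 thinned), C9 of the membrane attack complex being at 543 and 147 CPM and C8a at 319 and 103 CPM, with C8b and Masp1 the others. In coagulation 2 of 19 were called lower, the clotting factor F9 (165 and 64.2 CPM) and prekallikrein Klkb1 (266 and 79.9 CPM), beside 3.10% of all tested genes, too few to describe the list. Among 17 interferon-stimulated genes 4 were higher and 1 lower, beside 5.18% and 3.10% of all tested genes. Ifi27l2b was at 73.2 and 426 CPM, and at 17.5 CPM in Ptprc-positive HCC cells. Herpud1, of the unfolded protein response, was at 552 and 179 CPM, and the pseudokinase gene Trib3 at 4.51 and 30.4 CPM. None of 25 oxidative phosphorylation genes or 8 hypoxia targets passed 2-fold, with medians of -0.25 and -0.11.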
